A study of Mus musculus with 18 samples.

Results

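Cardiac fibroblasts were followed through the first month after birth in wells led by fibroblast genes on single-cell RNA-seq chips from mouse hearts at P4, P7, P14 and P28, where P stands for the postnatal day. A well needed at least 500 genes. A sum of 6 fibroblast genes (Col1a1, Col3a1, Col1a2, Dcn, Pdgfra and Lum) had to exceed the corresponding sums for endothelial cells, macrophages and mural cells (pericytes and smooth muscle) and make up at least 0.3% of its non-mitochondrial gene UMIs. At most 2 of 7 cell division genes could be detected. Each UMI (unique molecular identifier) stands for 1 captured RNA molecule. The rule kept 3022 of 10602 wells with 500 or more genes on 9 chips, namely 357 and 353 at P4, 395 and 288 at P7, then 168 and 43 at P14 and 554, 651 and 213 at P28. In every list of values the chips stand in this order, with replicates 1 and 2 at the first 3 stages and replicates 2, 4 and 6 at P28. The 7 cell division genes removed 479 further wells led by the fibroblast sum, 61 and 141 at P4, 100 and 158 at P7, then 0 and 0 at P14 and 13, 5 and 1 at P28, so that wells of dividing fibroblasts were set aside mostly at P4 and P7. The 30 genes of the rule chose the wells and were not tested. Just inside the threshold, 85 wells held between 0.3 and 0.35%, and just outside it 83 wells led by the same sum held between 0.25 and 0.3%. The median over the wells kept was 1.17%. Although 1241 of the wells carried a barcode also used on another chip, none of the 753 pairs with the same barcode held identical counts.

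Fibroblasts make and maintain the collagen-rich matrix that holds the myocardium together, and they signal to muscle, vessel and immune cells. After birth the heart is remodelled as pressure load rises, and cardiac fibroblasts pass from a dividing, matrix-building state into a mostly quiescent one. Fibroblasts activated after injury switch on smooth muscle actin and periostin, which are also made in the young heart.

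The study followed cardiomyocyte (CM) maturation, and fibroblast wells were taken from the same chips. All groups were Myh6/Esr1-Tomato mice (Myh6-cre/Esr1 crossed with R26-tdTomato) without a knockdown, in which the Myh6 promoter drives a tamoxifen-dependent Cre in cardiomyocytes only, and tamoxifen was given to the mothers by mouth after birth, so that every stage shared the transgenes and the drug. The stages were P4 (2 chips), P7 (2 chips), P14 (2 chips) and P28 (3 chips). For bulk sequencing the paper's methods give kit digestion of ventricles at P7 and perfusion of older hearts. They name no digestion for the single-cell hearts of the stages used here. If digestion changed with age in these too, from P7 to P14 or from P4 to P28, the 2 changes cannot be told apart. The well reports give both P4 chips the same pair of animal names, and likewise both P7 chips, so p-values measure the spread between chips, which may be technical. P14 wells were named NCM, for non-cardiomyocytes (108 and 17) or CM (60 and 26) in the reports. The well reports of P28 replicates 2 and 6 each named 2 animals.

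The summed UMIs per chip ranged from 774763 to 10563621, and the median UMIs per fibroblast well from 4642.5 to 16094. Mitochondrial genes took 19.6 and 21.0% of the UMIs at P4 and 49.2 and 49.4% at P7. At P14 they took 72.2 and 54.4%, and at P28 26.8, 17.9 and 18.4%, so that this share varied with stage. The share of wells that met the rule was 32.3 and 27.7% at P4, 30.8 and 24.9% at P7, then 13.7 and 7.76% at P14 and 37.7, 43.3 and 20.6% at P28 (exact 95% Clopper-Pearson intervals, which cover counting error only, run from 29.5 to 35.1% for P4 replicate 1 and from 5.67 to 10.3% for P14 replicate 2). These shares depend on how each suspension was loaded and were not compared between stages. P28 replicate 2 stood apart, since in 65.2% of its fibroblast wells another of the 3 sums exceeded 25% of the fibroblast sum, against 6.98 to 31.9% in the other chips. Xist was present in both P4 chips, P14 replicate 1 and P28 replicates 4 and 6, and the Y-linked Ddx3y in both P7 chips, P14 replicate 2 and P28 replicate 2, so that sex varied with stage. RNA of cells other than fibroblasts was present in all sums. The 13 cardiomyocyte markers together made 14666 to 21517 CPM (UMIs of a gene per 1000000 UMIs, here and in all marker sums without TMM scaling) at P4 and P7, 12193 and 15991 at P14, and 1342.5 to 5286.6 at P28, and in the 2285 wells of the same chips that the endothelial sum led in the same way (endothelial-led wells) they made 19237 to 28387, 18966 to 22468 and 1549.7 to 5455.4. Globin and other erythroid markers summed to 530.7 and 631 CPM at P4, at P7 to 4763.6 and 9292.6, at P14 to 116870.0 and 211700.0, and at P28 to between 24648 and 109350.0. Macrophage markers outside the rule summed to 132 and 156 CPM at P4 and 392 to 1234 at P28, and endothelial markers outside the rule to 498 and 502 at P4 and 790.5 to 2152 at P28.

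The label was checked on 15 genes of fibroblast identity that the rule did not use. Of these, 12 were higher in the fibroblast than in the endothelial-led wells in 9 of 9 chips, Cd34 in 5, and Tcf4 and Ly6a, which endothelial cells also express, in 0. Tcf21, a transcription factor of cardiac fibroblasts, was at 222 and 124 CPM at P4, 81.5 and 52.7 at P7, then 115 and 218 at P14 and 160.3, 149 and 87.7 at P28. Dpt, a matrix protein of fibroblasts, was at 976 and 1012 CPM at P4, 1215 and 966 at P7, then 1263 and 1861 at P14 and 863, 968 and 704 at P28. Neither passed the test between P28 and P4 (Tcf21 -0.38 ± 0.46 (SE, adjusted p = 0.856), Dpt -0.23 ± 0.32 (SE, adjusted p = 0.884)).

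**Figure D1:**
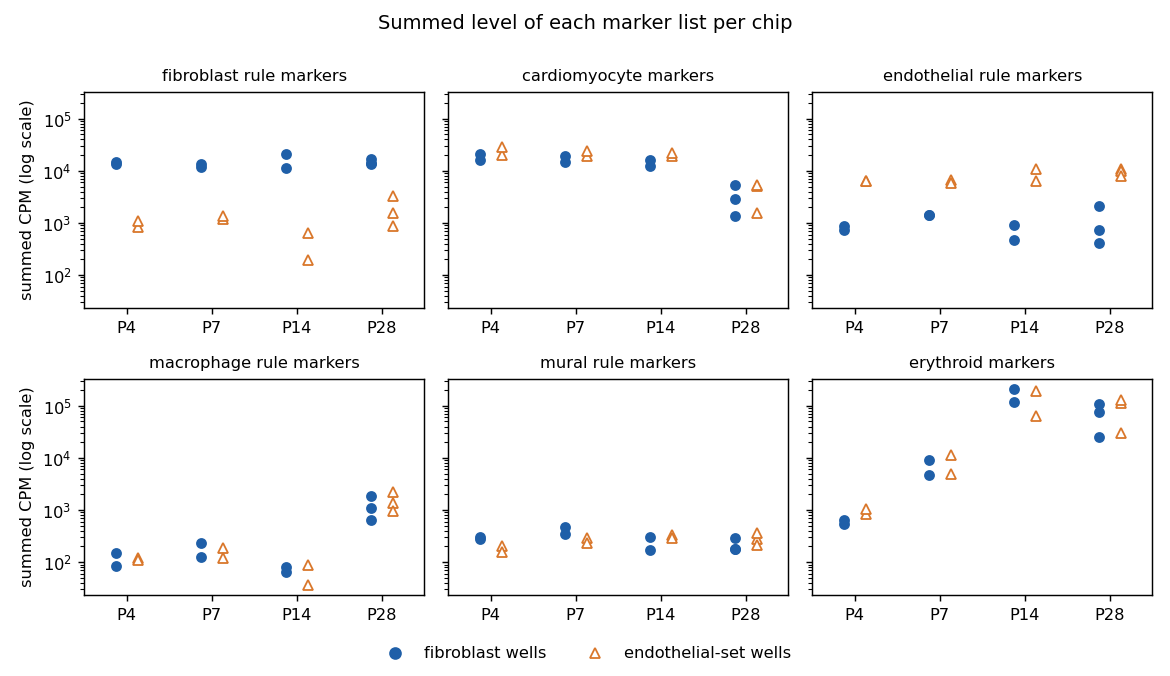
Summed CPM of 6 marker lists per chip on a log axis, by stage, with circles for fibroblast wells and triangles for the endothelial-led wells of the same chips. The fibroblast sum lies above that of the endothelial-led wells in every chip, as the choice of wells fixes. The cardiomyocyte sums are lowest at P28 in both, and higher in the endothelial-led wells in every chip but P28 replicate 2. The erythroid sums of the fibroblast wells are highest at P14.

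Between P4 and P28 the fibroblast wells changed in several gene groups. Pi16, gelsolin, chemokine and MHC class I genes rose, and periostin, smooth muscle actin, pleiotrophin, midkine and the imprinted RNA H19 fell. Of 16002 genes tested with edgeR's quasi-likelihood test, 116 rose and 97 fell (1.33% of all genes tested, with 0.725% higher and 0.606% lower), and the median log2 change over all genes was 0.03. Counts were also simulated for this comparison with the same spread for every gene. In them the test recovered 4% of genes changed 4-fold, 28% at 8-fold, 62% at 16-fold and 98% at 32-fold. At that spread changes of 4-fold or less would mostly be missed. In the data some genes, among them Mfap5 and Col14a1, did pass with changes under 4-fold. Without P28 replicate 2, the chip with many mixed wells, 179 genes passed (94 higher and 85 lower), and all chips of that comparison carried Xist. Leaving out another chip gave 76 genes without P4 replicate 1, 66 without P4 replicate 2, 105 without P28 replicate 4, 435 without P14 replicate 1 and 445 without P14 replicate 2. With UMIs summed by the animals the well reports name, 209 genes passed, and without wells over 1% cardiomyocyte markers 81. Fewer cells with a gene and less RNA per cell cannot be told apart in such sums. The 1% limit, here and below, removed most P4 and P7 wells. It left 66 and 28 P4 wells and 93 and 21 P7 wells. For P14 it left 96 and 17 wells, and for P28 481, 629 and 164. Wells over the limit made up 81.5 and 92.1% of the P4 chips, against 13.2, 3.38 and 23.0% of the P28 chips. Whether calls ended under this limit through fewer wells or less cardiomyocyte RNA was not tested.

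**Figure D2:**
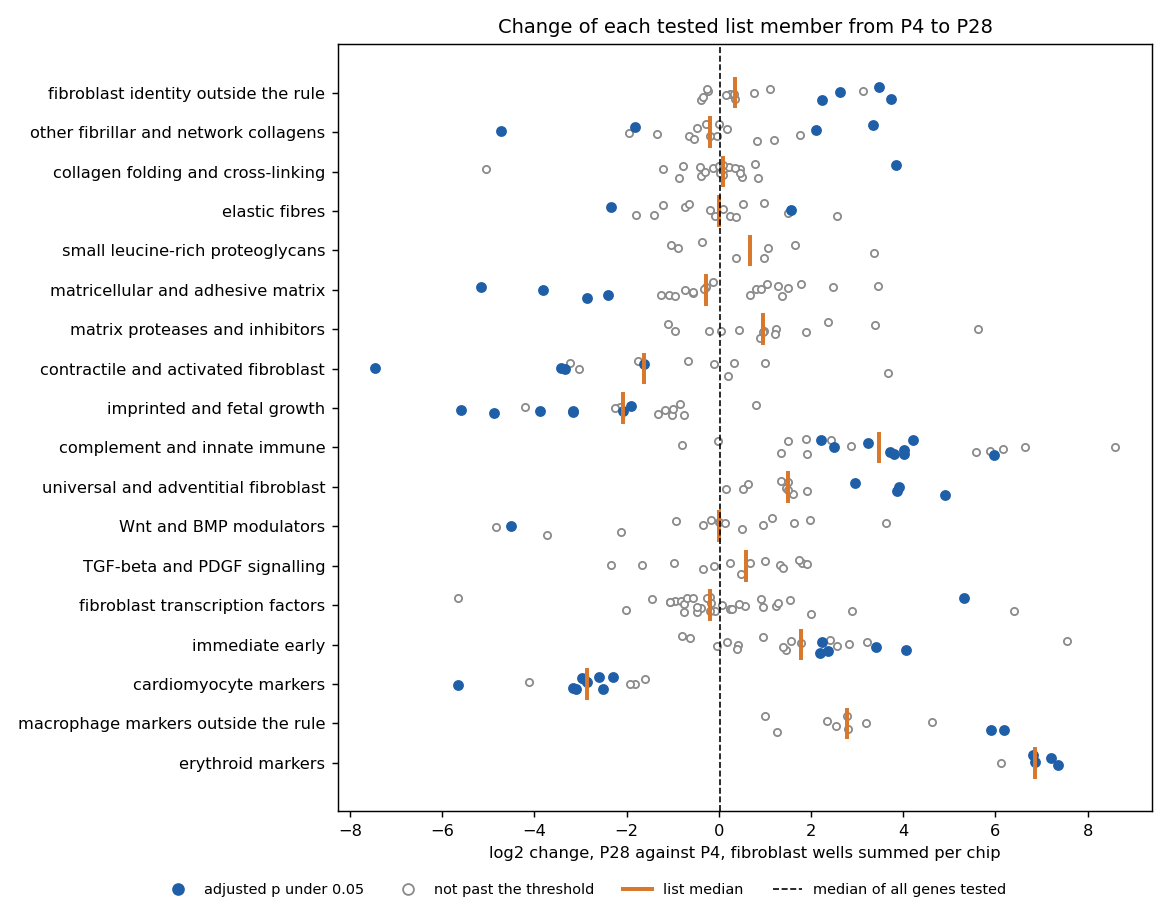
Log2 change from P4 to P28 of each tested member of 18 gene lists. A point is 1 gene, filled where its adjusted p was under 0.05, a vertical bar is the median of a list and the dashed line the median of all genes tested. Complement and innate genes lie mostly to the right (median 3.48, 9 of 22 filled), and imprinted and fetal growth genes to the left (median -2.09, 7 of 17 filled).

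Some contractile and activation genes fell. Of 13 tested, 4 were lower and 0 higher at P28 than at P4, with a list median of -1.63 against 0.03 over all genes. The list summed to 3896 and 5092 CPM at P4 and 906 to 2020 at P28. In the endothelial-led wells it summed to like levels, 3747 and 5327 at P4 and 809 to 1823 at P28. For Acta2 the fibroblast change minus the endothelial one was -0.11 ± 0.60 (SE). Acta2 (ENSMUSG00000035783, GRCm38 chr19:34241090-34255590), the smooth muscle actin used to mark activated fibroblasts, was at 341 and 499 CPM at P4, 332 and 322 at P7, then 23.1 and 21.5 at P14 and 25.5, 31.2 and 69.4 at P28. All 4 chips of P4 and P7 lay above all 5 of P14 and P28. The log2 change was -3.34 ± 0.46 (SE, adjusted p = 0.000556) from P4 to P28 and -3.87 ± 0.56 (SE, adjusted p = 0.00342) from P7 to P14. Myl9, a regulatory light chain of smooth muscle and nonmuscle myosin, was at 325 and 398 CPM at P4, 235 and 316 at P7, then 28.2 and 18.6 at P14 and 22.3, 43.8 and 34.3 at P28. Its chips split the same way, with a change of -3.43 ± 0.44 (SE, adjusted p = 0.000294). Cnn1, the smooth muscle calponin, was at 25.9 and 22.2 CPM at P4 and 0, 0.094 and 0.457 at P28, and with 2 UMIs over the P28 chips the ratio of P4 to P28 was 231 with a 95% counting interval of 63.4 to 1912. Tpm1, a tropomyosin that cardiomyocytes express strongly, fell by 1.63 on the log2 scale (adjusted p = 0.0293), and its level was below that of the endothelial-led wells in 8 of 9 chips. Leaving out 1 chip ended the call for Cnn1 without P28 replicate 4 (adjusted p = 0.0663) and Tpm1 without P4 replicate 2 or P28 replicate 4 or 6 (adjusted p = 0.0739 to 0.405). Leaving out wells over 1% cardiomyocyte markers ended it for Cnn1 and Tpm1 (adjusted p = 0.102 to 0.228).

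The upstream windows of Myl9 and Acta2 are shown because both genes moved together, each as the 250 bases before the RefSeq start site in GRCm38.p6, with a CArG box in capitals, the element that serum response factor binds.
Myl9, chr2:156775214-156775463, plus strand: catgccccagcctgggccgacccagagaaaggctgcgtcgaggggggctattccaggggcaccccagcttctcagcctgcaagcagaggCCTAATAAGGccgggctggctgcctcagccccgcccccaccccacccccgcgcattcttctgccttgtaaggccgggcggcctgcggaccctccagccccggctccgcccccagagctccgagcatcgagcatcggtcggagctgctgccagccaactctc
Acta2, chr19:34255374-34255623, minus strand: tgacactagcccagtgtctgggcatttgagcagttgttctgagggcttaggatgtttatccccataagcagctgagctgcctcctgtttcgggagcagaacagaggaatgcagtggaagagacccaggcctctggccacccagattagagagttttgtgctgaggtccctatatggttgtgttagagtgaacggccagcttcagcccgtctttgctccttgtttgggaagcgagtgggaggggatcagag
Searched in its perfect form, CC and 6 bases of A or T followed by GG, the box lies 161 bases before the start in Myl9 and is not among the letters of the Acta2 window, where the known elements of this kind deviate from that form. Over both strands, perfect boxes occur in 482 of 32851 promoter windows of this length (1.47%), and 2 of 9 contractile genes with a window hold one (Myl9 and Cnn2). A match is a description of letters in this window.

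Some matricellular genes fell too, with 4 lower and 0 higher of 23 tested and a list median of -0.28. Postn (ENSMUSG00000027750, GRCm38 chr3:54361109-54391037), periostin, a secreted matrix protein of growing and injured tissue, was at 1732 and 1316 CPM at P4, 1396 and 1155 at P7, then 256 and 424 at P14 and 181, 159 and 529.8 at P28. Both P4 chips lay above all 3 P28 chips, and the log2 change was -2.40 ± 0.45 (SE, adjusted p = 0.00952). Cthrc1, a secreted protein of collagen-producing fibroblasts, was at 299 and 209.9 CPM at P4, 261 and 122 at P7, then 35.1 and 45.8 at P14 and 11.1, 5.45 and 39.7 at P28. The change was -3.81 ± 0.65 (SE, adjusted p = 0.00389). Its P4 and P28 chips did not overlap. Ccn3 was at 125 and 135 CPM at P4 and 26.6, 23.6 and 2.28 at P28 and Ccn4, an early Wnt target, at 19.7 and 20.8 CPM at P4 and 0.153, 0.94 and 0.457 at P28. The changes were -2.86 ± 0.69 (SE, adjusted p = 0.0486) and -5.16 ± 1.11 (SE, adjusted p = 0.0252). Sfrp2, a secreted Wnt modulator, fell by 4.51 on the log2 scale (adjusted p = 0.00613), the single call among 15 Wnt and BMP modulators. The threshold was missed, when 1 chip was left out, by Postn without P4 replicate 1 or P28 replicate 4 (adjusted p = 0.0508 to 0.0704), Ccn3 without P4 replicate 1 or 2 or P7 replicate 1 or P28 replicate 2, 4 or 6 (adjusted p = 0.0544 to 0.267) and Ccn4 without P4 replicate 1 or 2 or P28 replicate 2, 4 or 6 (adjusted p = 0.0728 to 0.138). This also applied to Sfrp2 without P4 replicate 1 (adjusted p = 0.145). No call came from sums per named animal for Ccn3 (adjusted p = 0.0563). Wells of at most 1% cardiomyocyte markers gave no call for Ccn4 (adjusted p = 0.115).

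Several growth factors and imprinted genes of fetal tissue fell. Of 17 tested, 7 were lower and 0 higher at P28, and the list median was -2.09. Ptn (ENSMUSG00000029838, GRCm38 chr6:36714929-36810220), pleiotrophin, a heparin-binding growth factor, was at 509 and 727 CPM at P4, 514 and 619 at P7, then 103 and 25.8 at P14 and 15.1, 41.3 and 5.02 at P28. Its P4 and P28 chips lay far apart, with a log2 change of -4.87 ± 0.66 (SE, adjusted p = 0.000495). Midkine (Mdk), its relative, was at 848 and 743 CPM at P4, 472 and 407 at P7, then 194 and 77.3 at P14 and 64.4, 64.2 and 139 at P28. The change was -3.16 ± 0.45 (SE, adjusted p = 0.000768). H19, an imprinted noncoding RNA next to Igf2, was at 1263 and 1080.0 CPM at P4, 1145 and 974 at P7, then 231 and 61.6 at P14 and 195, 152 and 41.6 at P28. The change was -3.17 ± 0.54 (SE, adjusted p = 0.00393). Igf2, an imprinted growth factor, was at 767 and 561 CPM at P4, 369 and 434 at P7, then 463 and 157 at P14 and 219.6, 159 and 89.5 at P28, and it was lower than in the endothelial-led wells in all 9 chips. Its change was -2.09 ± 0.45 (SE, adjusted p = 0.0267). Peg3, Mest and Igf2bp3 also passed, with log2 changes of -1.90, -3.88 and -5.58. The call did not hold for Igf2 without P4 replicate 1 or 2 or P28 replicate 4 or 6 (adjusted p = 0.0876 to 0.245), Peg3 without P4 replicate 1 or 2 or P28 replicate 4 (adjusted p = 0.0542 to 0.138) and Mest without P4 replicate 1 or 2 or P28 replicate 2, 4 or 6 (adjusted p = 0.051 to 0.154). Others were Igf2bp3 without P4 replicate 1 or P28 replicate 2, 4 or 6 (adjusted p = 0.074 to 0.279). Without wells over 1% cardiomyocyte markers no call remained for Igf2 and Igf2bp3 (adjusted p = 0.153 to 0.538).

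**Figure D3:**
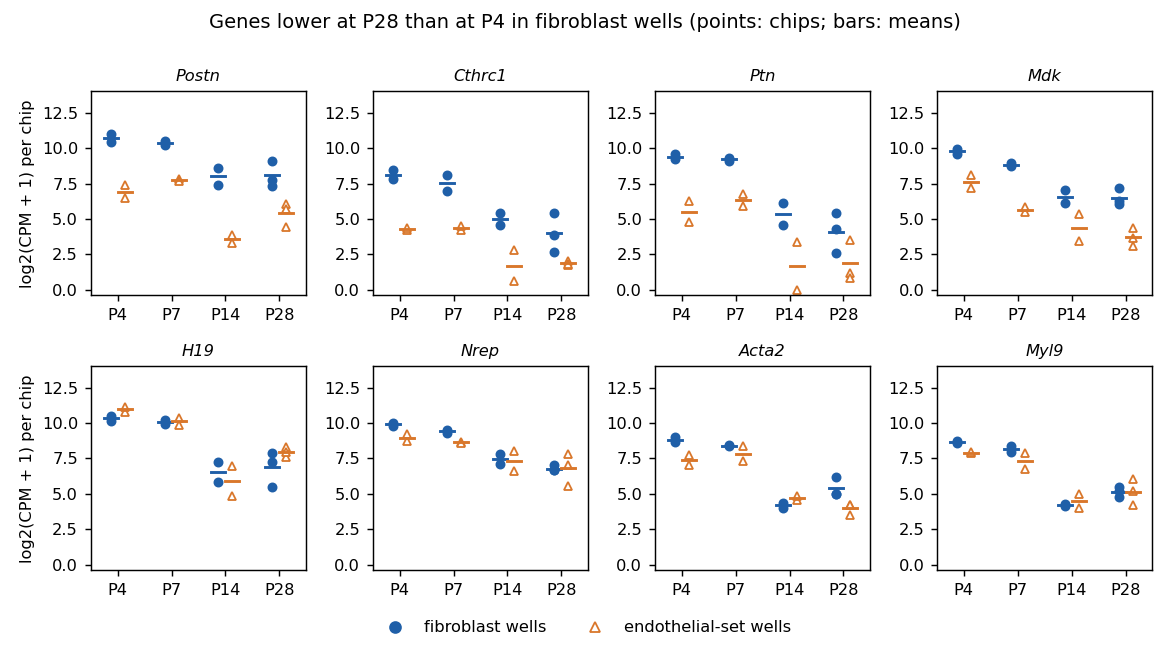
Levels of 8 genes lower at P28 than at P4, as log2(CPM + 1) per chip by stage, without TMM scaling, with circles for fibroblast wells, triangles for the endothelial-led wells of the same chips and bars for means. Acta2 and Myl9 are lower in every P14 and P28 chip than in any P4 or P7 chip of the fibroblast wells, and H19 has like levels in both kinds of well.

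Outside those lists, Nrep fell by 3.10 on the log2 scale (adjusted p = 9.81e-05) and was at 767 and 986 CPM at P4 and 106, 99.1 and 100.5 at P28. Ankrd1, Sln, Tnni1 and Myl4 were also among the 10 lowest p, together with Gm10800. All such rankings by p leave out genes whose chips overlapped and genes on a list of another cell type. Ankrd1, a stretch-responsive muscle protein, was at 279.6 and 369.8 CPM at P4 and 25.5, 10.7 and 20.6 at P28, and Sln, an atrial regulator of the calcium pump, at 222 and 794 CPM at P4 and 1.53, 0 and 0.457 at P28. Mean unscaled levels of Ankrd1 and Sln at P4 were 358 and 548 CPM in the fibroblast wells and 439 and 592 in the endothelial-led wells. Of 13 cardiomyocyte markers 9 fell in the fibroblast wells, their sum was lower at P28 in both kinds of well, and their part in these genes was not tested.

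Matrix genes moved in both directions. Collagen and folding lists held few calls, with 2 of 17 other collagens higher, 2 lower (median -0.20), and 1 of 21 folding genes higher (Pcolce2, median 0.09). Col14a1, a fibril-associated collagen, was at 828 and 692 CPM at P4, 905 and 737 at P7, then 239 and 265 at P14 and 214, 283 and 148 at P28, so that P4 and P7 lay above P14 and P28. It changed by -1.82 ± 0.36 (SE, adjusted p = 0.0134). Col11a1 fell by 4.73 (adjusted p = 0.0416), while Col5a3 (2.12) and Col8a1 (3.34) rose. Mfap2 (microfibril-associated protein) changed by -2.35 ± 0.46 (SE, adjusted p = 0.0128), and Mfap5 rose by 1.56 ± 0.36 (SE, adjusted p = 0.0363). In Mfap5 the chips were at 999.5 and 1930.0 CPM at P4 and 3003, 4310.1 and 5633 at P28. The main fibrillar genes are part of the rule and were not tested, and Col1a1 was at 1556 and 1079.7 CPM at P4, 1735 and 1493 at P7, then 1367 and 1097 at P14 and 712, 647 and 891 at P28 and Col3a1 at 4692 and 4392 CPM at P4, 4596 and 3826 at P7, then 5357 and 7018 at P14 and 3475, 2533 and 2907 at P28. Among 8 proteoglycans (median 0.67) and 14 proteases and inhibitors (median 0.96), 0 passed with edgeR, 4 and 7 had an unadjusted p under 0.05, and DESeq2 called 1 and 3. When 1 chip was dropped, p exceeded 0.05 for Col14a1 without P4 replicate 1 or 2 (adjusted p = 0.0732 to 0.154), Mfap2 without P4 replicate 1 or 2 or P28 replicate 4 (adjusted p = 0.0548 to 0.0913) and Mfap5 without P4 replicate 1 or P28 replicate 4 or 6 (adjusted p = 0.0777 to 0.409). Further cases were Col11a1 without P4 replicate 1 or 2 or P28 replicate 2, 4 or 6 (adjusted p = 0.0534 to 0.176), Col5a3 without P4 replicate 1 or 2 or P7 replicate 1 or 2 or P28 replicate 2 or 4 (adjusted p = 0.0544 to 0.51) and Col8a1 without P4 replicate 1 or 2 or P28 replicate 6 (adjusted p = 0.154 to 0.473). This also applied to Pcolce2 without P4 replicate 1 (adjusted p = 0.0979). The call of Col11a1 and Col8a1 was absent from sums per named animal (adjusted p = 0.0538 to 0.0696). Leaving out wells over 1% cardiomyocyte markers ended it for Mfap2, Mfap5, Col11a1, Col5a3, Col8a1 and Pcolce2 (adjusted p = 0.057 to 0.841).

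Some genes of adventitial and universal fibroblasts rose, with 4 of 13 higher and 0 lower and a median of 1.51. Pi16 (ENSMUSG00000024011, GRCm38 chr17:29317680-29330593), a secreted peptidase inhibitor used to mark a fibroblast reservoir, was at 22.9 and 28.6 CPM at P4, 114 and 136 at P7, then 346 and 368 at P14 and 888, 361 and 1073 at P28. The chips of each stage lay above those of the stage before, except that P28 replicate 4 lay between the P14 chips, and the change from P4 to P28 was 4.91 ± 0.53 (SE, adjusted p = 7.97e-05). Ackr3, a scavenging chemokine receptor, was at 15.9 and 8.38 CPM at P4, 26.4 and 22.3 at P7, then 151 and 256 at P14 and 300.0, 132 and 95 at P28. The change was 3.86 ± 0.62 (SE, adjusted p = 0.00235). Igfbp6, an IGF-binding protein, was at 77.6 and 24.5 CPM at P4 and 492, 227 and 474 at P28. The change was 2.96 ± 0.59 (SE, adjusted p = 0.015). Efhd1 changed by 3.90 ± 0.88 (SE, adjusted p = 0.0327). Gsn (ENSMUSG00000026879, GRCm38 chr2:35256380-35307892), gelsolin, an actin-severing protein abundant in resident fibroblasts, was at 348 and 504 CPM at P4, 476 and 309.8 at P7, then 2822 and 4783 at P14 and 4719.5, 3859 and 5592 at P28. It rose by 3.47 ± 0.40 (SE, adjusted p = 0.000114). Mgp, an inhibitor of calcification, was at 919 and 853 CPM at P4, 884 and 648 at P7, then 3661 and 3921 at P14 and 3174, 5885 and 3477 at P28, and Htra3, a secreted protease, was at 66.4 and 73.9 CPM at P4, 129.6 and 135 at P7, then 726 and 1224 at P14 and 598, 377 and 331 at P28. Their changes were 2.24 ± 0.36 (SE, adjusted p = 0.00224) and 2.63 ± 0.42 (SE, adjusted p = 0.00235). Of 15 identity genes, Gsn, Mgp, Htra3 and Ly6a rose (4 of 15, median 0.35). Leaving out 1 chip ended the call for Mgp, Ackr3 and Igfbp6 without P4 replicate 2 (adjusted p = 0.0562 to 0.318), Htra3 without P4 replicate 1 or 2 (adjusted p = 0.0628 to 0.0736) and Efhd1 without P4 replicate 1 or 2 or P7 replicate 1 or P28 replicate 2, 4 or 6 (adjusted p = 0.0515 to 0.367). Others were Ly6a without P4 replicate 1 (adjusted p = 0.079). No call came from sums per named animal for Efhd1 (adjusted p = 0.0642). Wells of at most 1% cardiomyocyte markers gave no call for Htra3, Igfbp6 and Efhd1 (adjusted p = 0.102 to 0.759).

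Many complement and innate immune genes rose, with 9 of 22 higher and 0 lower and a median of 3.48. Serping1, the inhibitor of complement C1, was at 254 and 443 CPM at P4 and 691, 974 and 3162 at P28. The change was 2.21 ± 0.54 (SE, adjusted p = 0.0486). C1ra and C1s1 encode proteases of the first complement component. They changed by 4.02 ± 0.90 (SE, adjusted p = 0.0308) and 4.01 ± 0.94 (SE, adjusted p = 0.0403). The chemokine Ccl7 was at 7.13 and 4.36 CPM at P4, 29.0 and 18.0 at P7, then 445 and 113 at P14 and 224, 536 and 308 at P28. The change was 5.96 ± 0.71 (SE, adjusted p = 0.000151). Cxcl1, a neutrophil chemokine, was at 17.6 and 42.7 CPM at P4 and 324, 696 and 238 at P28. The change was 3.80 ± 0.68 (SE, adjusted p = 0.00613). The threshold was missed, when 1 chip was left out, by Cxcl1 without P4 replicate 1 (adjusted p = 0.146), C1ra without P4 replicate 1 or 2 or P7 replicate 1 or 2 or P28 replicate 2 or 4 (adjusted p = 0.0509 to 0.449) and C1s1 without P4 replicate 1 or 2 or P28 replicate 4 or 6 (adjusted p = 0.113 to 0.403). Further cases were Serping1 without P4 replicate 1 or 2 or P28 replicate 6 (adjusted p = 0.135 to 0.403). Sums per named animal gave no call for C1ra, C1s1 and Serping1 (adjusted p = 0.0769 to 0.0899). Without wells over 1% cardiomyocyte markers no call remained for C1ra, C1s1 and Serping1 (adjusted p = 0.125 to 0.361).

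The MHC class I genes H2-K1 and H2-D1 present peptides to T cells, and B2m encodes their shared light chain. H2-K1 was at 21.7 and 9.72 CPM at P4, 15.7 and 13.5 at P7, then 92.4 and 116 at P14 and 381, 272 and 213 at P28, H2-D1 at 44.1 and 47.4 CPM at P4 and 505, 368 and 428 at P28 and B2m at 258 and 258 CPM at P4, 252 and 204 at P7, then 521 and 469.6 at P14 and 1421, 1572 and 1387 at P28. All P28 chips exceeded all P4 chips for the 3 genes. The changes were 4.20 ± 0.56 (SE, adjusted p = 0.000408), 3.24 ± 0.44 (SE, adjusted p = 0.000513) and 2.5 ± 0.35 (SE, adjusted p = 0.000736). Leaving out wells over 1% cardiomyocyte markers ended it for H2-D1 (adjusted p = 0.0682). Both H2 genes were lower in the fibroblast than in the endothelial-led wells in all 9 chips, and B2m in 8. All 10 macrophage markers outside the rule had a log2 change above 0 (median 2.79), and 2 passed (Cd14 and Ptprc, with 8 at an unadjusted p under 0.05 and 6 by DESeq2). All 10 lymphoid and granulocyte markers did too (median 5.61), 1 passed (S100a8, with 6 unadjusted and 6 by DESeq2), and their sum went from 8.49 and 14.3 CPM at P4 to between 69.7 and 397 at P28. Of 10 endothelial markers 9 were above 0 (median 1.14) and 2 passed (Aqp1 and Ly6c1). The part of such RNA in these rises was not tested. The B2m window is shown for a core element of interferon-stimulated genes in capitals, the letters GAAA, any 2 bases, and GAAA again.
B2m, chr2:122147437-122147686, plus strand: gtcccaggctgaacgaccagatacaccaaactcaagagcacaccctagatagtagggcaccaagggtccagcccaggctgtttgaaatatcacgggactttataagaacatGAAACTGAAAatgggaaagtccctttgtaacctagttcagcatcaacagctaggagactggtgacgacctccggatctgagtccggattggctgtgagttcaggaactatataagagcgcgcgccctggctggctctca
The match lies 139 bases before the start. Over both strands the element occurs in 978 of 32851 windows (2.98%) and in 3 of 15 complement and innate genes with a window (B2m, Cxcl14 and Ccl19).

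**Figure D4:**
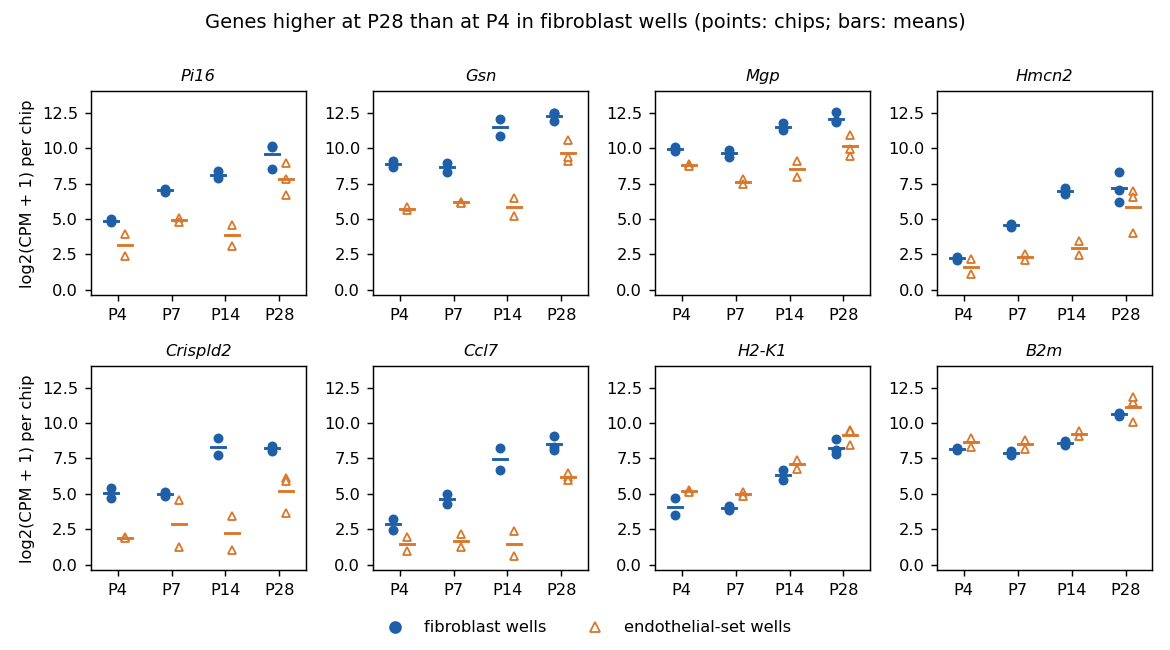
Levels of 8 genes higher at P28 than at P4, as log2(CPM + 1) per chip by stage, without TMM scaling, with circles for fibroblast wells, triangles for the endothelial-led wells of the same chips and bars for means. Pi16, Gsn and Mgp lie above the endothelial-led wells in all 9 chips, H2-K1 lies below them in all 9, and the mean of the endothelial-led wells is also higher at P28 than at P4 for all 8 genes.

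Some immediate early genes rose, with 5 of 21 higher and 0 lower (median 1.78), namely Btg2, Dusp1, Junb, Nr4a1 and Zfp36. The part of digestion in these rises was not tested. Zfp36, a protein that destabilizes inflammatory mRNA, was at 11.4 and 3.46 CPM at P4 and 149, 164 and 53.9 at P28. The change was 4.05 ± 0.71 (SE, adjusted p = 0.00524). Tsc22d3 and Per1, which glucocorticoids induce, were at 45.3 and 39.9 CPM at P4 and 359, 359 and 691 at P28 and 0.91 and 1.68 CPM at P4 and 42.1, 27.4 and 89.5 at P28. The change was 3.46 ± 0.51 (SE, adjusted p = 0.000979) and 5.31 ± 0.85 (SE, adjusted p = 0.00221). Cdkn1a, an inhibitor of cell division, was at 24.4 and 24.0 CPM at P4, 116 and 93.8 at P7, then 445 and 198 at P14 and 224, 548 and 359 at P28. It rose by 3.96 ± 0.54 (SE, adjusted p = 0.000495). Gsta3, a glutathione transferase, had 1 UMI over both P4 chips, and the ratio of P28 to P4 was 1440.5 with a 95% counting interval of 258 to 56928. Hmcn2 and Crispld2, both secreted or matrix proteins, rose by 5.52 ± 0.69 (SE, adjusted p = 0.000271) and 3.22 ± 0.46 (SE, adjusted p = 0.000736). The metal-binding Mt1 and Mt2 rose by 2.79 and 2.85 and the lipid carrier Apod by 5.89, of 19 lipid and redox genes with 3 higher and 1 lower (Fabp3). The call did not hold for Zfp36 and Crispld2 without P4 replicate 2 (adjusted p = 0.0562 to 0.178), Per1 without P4 replicate 1 (adjusted p = 0.0743) and Junb, Btg2 and Dusp1 without P4 replicate 1 or 2 or P28 replicate 4 (adjusted p = 0.0542 to 0.344). This also applied to Nr4a1 without P4 replicate 1 or 2 or P28 replicate 2 or 4 (adjusted p = 0.0576 to 0.436), Mt1 without P4 replicate 1 or 2 (adjusted p = 0.0576 to 0.219) and Mt2 without P4 replicate 1 or 2 or P28 replicate 4 or 6 (adjusted p = 0.113 to 0.405). Others were Apod without P4 replicate 1 or 2 or P28 replicate 6 (adjusted p = 0.0799 to 0.227). No call came from sums per named animal for Mt2 (adjusted p = 0.141). Wells of at most 1% cardiomyocyte markers gave no call for Per1, Crispld2, Junb, Nr4a1, Btg2, Dusp1 and Mt2 (adjusted p = 0.0569 to 0.324). Hba-ps4, a globin pseudogene that moves with the erythroid markers, completes the 10 with the lowest p.

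Several lists held no or a single call for P28 against P4. Of 24 S phase and mitosis genes outside the rule 0 passed (median -1.55), with 11 at an unadjusted p under 0.05 and 5 called by DESeq2, in wells from which the most clearly cycling had been removed. Of 14 TGF-beta and PDGF signalling genes 0 passed (5 unadjusted, 2 by DESeq2), among 33 transcription factors 1 rose (Per1), and of 8 genes of the IGF axis 1 rose (Igfbp6). The 8 mural, 7 epicardial and 4 Schwann markers tested also gave 0 calls (3, 1 and 1 unadjusted, 2, 1 and 0 by DESeq2).

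The steps between stages were unequal in the fit of all stages, but their order depended on the fit. With only the 2 stages compared in each fit, most genes passed from P4 to P7 and fewest from P7 to P14. From P4 to P7 2 of 16002 genes passed (0.0125%, 0.00625% in each direction). Hba-a2, a globin, was higher and Myl7, an atrial myosin light chain, lower, and both belong to other cell types. Sex and stage cannot be told apart in this step. Unscaled Xist was at 288 and 165 CPM at P4 and 0.599 and 1.14 at P7. Ddx3y was at 0.353 and 0 CPM at P4 and 101 and 71.4 at P7. Neither passed in the fit of all stages, so 2 calls do not show that few genes differed. DESeq2 called 74 genes. With edgeR the count was 0 without P4 replicate 2 and 0 without P7 replicate 1 (592 and 485 at an unadjusted p under 0.05, with DESeq2 not run on these subsets), without P28 replicate 6 it was 1, and it lay between 5 and 8 without P7 replicate 2, P14 replicate 1 or 2, or P28 replicate 2 or 4.

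From P7 to P14, a step in which digestion may have changed with age, 88 genes rose and 57 fell (0.906% of all tested, 0.55% higher and 0.356% lower), and the median log2 change over all genes was -0.19. Without 1 chip the count was 19 (P7 replicate 1), 26 (P7 replicate 2) or 1038 (P14 replicate 1). Fitted with the 2 stages alone it was 7, with sums per named animal 61, and without wells over 1% cardiomyocyte markers 37. Of 15 identity genes 3 rose and 0 fell (median 0.96), of 22 complement and innate genes 4 rose and 0 fell (Ccl2, Ccl7 and H2-K1 among them, median 1.31), of 13 contractile genes 3 fell and 0 rose (Acta2, Myl9 and Tpm2, median -1.71), and of 17 imprinted and fetal growth genes 2 fell and 0 rose (H19 and Ptn, median -1.11). Among 24 S phase and mitosis genes 3 fell (Birc5, Hmgb2 and Mcm4, median -1.96). All 5 erythroid markers rose in the same step (median 5.37), and their part in it was not tested. In the ranking by p, which left out the erythroid markers, the 10 that rose were Gsn, Crispld2, Htra3, Tsc22d3, Gsta3, the globin pseudogene Hba-ps4, and Gm12155, Dynlt1-ps1, Gm13340 and Gm1821. Gsn rose by 3.27 ± 0.41 (SE, adjusted p = 0.000734), Crispld2 by 3.87 ± 0.49 (SE, adjusted p = 0.000734), Htra3 by 2.88 ± 0.45 (SE, adjusted p = 0.00381) and Tsc22d3 by 3.46 ± 0.53 (SE, adjusted p = 0.00381). The 10 with the lowest p that fell were Acta2, Myl9, Spon2, Maged2, Cenpe, Pafah1b3, Ddah1, Tnni1, Gm10800 and 9330020H09Rik. Maged2, of the MAGE family, was at 754 and 914 CPM at P4, 689.9 and 679 at P7, then 157 and 84.5 at P14 and 173, 194 and 151 at P28. All P4 and P7 chips lay above all later ones, and the change from P7 to P14 was -2.49 ± 0.42 (SE, adjusted p = 0.00774). Cenpe, a mitotic motor protein, had 0 UMIs at P14 and was at least 69.9-fold lower than at P7, with the floor of 3 UMIs set over both P14 chips. Pafah1b3 and Ddah1 had 1 UMI each at P14, and the ratios of P7 to P14 were 149.5 with a 95% counting interval of 26.8 to 5912 and 166 with a 95% counting interval of 29.7 to 6548.

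Of 14 TGF-beta and PDGF signalling genes 1 rose from P7 to P14 (median -0.20), and of 33 transcription factors 3 rose (median 0.16), with 0 lower in both lists. Tgfbr3, a TGF-beta co-receptor, was at 11.1 and 11 CPM at P7 and 98.8 and 137 at P14. It rose by 3.41 ± 0.65 (SE, adjusted p = 0.0196). Klf9, a transcription factor that glucocorticoids and thyroid hormone induce, was at 41.9 and 39.7 CPM at P7 and 238 and 499.7 at P14. It rose by 3.17 ± 0.58 (SE, adjusted p = 0.0154). Mgp rose by 2.31 ± 0.38 (SE, adjusted p = 0.00556). Spon2, a secreted matrix protein, was at 471 and 766 CPM at P4, 538 and 659 at P7, then 100.2 and 70.2 at P14 and 324, 541 and 666 at P28, falling by 2.80 to P14 (adjusted p = 0.00597) and rising by 2.57 ± 0.44 (SE, adjusted p = 0.00991) to P28. The P14 chips were therefore the lowest for Spon2. For P14 against P7, with 1 chip dropped, p exceeded 0.05 for Htra3, Tsc22d3, Maged2, Tgfbr3, Mgp, Ccl7 and H2-K1 without P7 replicate 1 or 2 (adjusted p = 0.0529 to 0.265), Gsta3 and Ddah1 without P7 replicate 1 (adjusted p = 0.0559) and Klf9 and H19 without P7 replicate 1 or 2 or P14 replicate 2 (adjusted p = 0.0584 to 0.19). Further cases were Ccl2 without P7 replicate 2 (adjusted p = 0.178), Ptn and Tpm2 without P4 replicate 1 or 2 or P7 replicate 1 or 2 or P14 replicate 2 (adjusted p = 0.053 to 0.234) and Birc5 without P7 replicate 1 or 2 or P14 replicate 1 or 2 (adjusted p = 0.0529 to 0.139). This also applied to Hmgb2 without P4 replicate 1 or P7 replicate 1 or 2 (adjusted p = 0.0517 to 0.22) and Mcm4 without P4 replicate 1 or 2 or P7 replicate 1 or 2 or P14 replicate 1 or 2 or P28 replicate 2 or 4 (adjusted p = 0.0561 to 0.178). Sums per named animal gave no call for Tnni1, Ddah1, Tgfbr3, Ccl2, Ccl7, H19, Ptn, Tpm2, Birc5, Hmgb2 and Mcm4 (adjusted p = 0.0598 to 0.174). Without wells over 1% cardiomyocyte markers no call remained for Cenpe, Pafah1b3, Gsta3, Maged2, Ddah1, Tgfbr3, Klf9, Mgp, Ccl2, Ccl7, H2-K1, H19, Ptn, Tpm2, Birc5, Hmgb2 and Mcm4 (adjusted p = 0.0556 to 0.388). For P28 against P14 the call ended for Spon2 without P14 replicate 2 (adjusted p = 0.0947).

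From P14 to P28, 11 genes rose and 39 fell (0.312% of all tested, 0.0687% higher and 0.244% lower), and the median over all genes was 0.29. Without P14 replicate 1 the count was 878, and without P28 replicate 4 or 6 it was 30 in each case. It was 7 without wells over 1% cardiomyocyte markers. Among the 10 with the lowest p in each direction, Spon2, Arhgap18, Trf, Apoe, 1500015O10Rik, Ccl6, H2-Ab1, Slfn2, Rtp4 and Wfdc17 rose. The macrophage markers of the rule summed to 63.2 to 82.2 CPM at P14 and 632 to 1896 at P28 in the fibroblast wells. In the endothelial-led wells they summed to 35.9 to 86.6 and 961 to 2235. The part of macrophage RNA in the genes that rose was not tested. Apoe, a lipoprotein of macrophages and fibroblasts, was at 1642 and 1238 CPM at P14 and 4356, 3509.5 and 5293 at P28. It rose by 1.61 ± 0.33 (SE, adjusted p = 0.0417). Trf, transferrin, was at 9.24 and 11.5 CPM at P14 and 171, 78.4 and 129 at P28. It rose by 3.63 ± 0.68 (SE, adjusted p = 0.0198). Those that fell include Atp2a2, Lmod3, Mybpc3, Hopx and Itgb1bp2, which cardiomyocytes express, and 8 of 13 cardiomyocyte markers, so the fall of cardiomyocyte RNA stands beside this step, and its part was not tested. The other 5 (Gm13340, Gm11407, Gm12155, Gm13341 and Gm4076) are predicted genes whose stage means, like the mitochondrial share, were highest at P14. With only the P14 wells named NCM, 0 genes passed in this comparison with edgeR (2364 at an unadjusted p under 0.05, with DESeq2 not run on these wells). Leaving out 1 chip ended the call for Apoe without P14 replicate 2 or P28 replicate 2 or 6 (adjusted p = 0.0507 to 0.226) and Trf without P28 replicate 2 or 6 (adjusted p = 0.0613 to 0.0979). The call of Apoe and Arhgap18 was absent from sums per named animal (adjusted p = 0.0599 to 0.0702). Leaving out wells over 1% cardiomyocyte markers ended it for Spon2, Apoe, Trf and Arhgap18 (adjusted p = 0.356 to 0.48).

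The changes were compared with those of the endothelial-led wells of the same chips, tested as the difference of the 2 changes within chips. Of 17072 genes, 0 passed with edgeR (0% of all genes tested), 662 had an unadjusted p under 0.05, and DESeq2 called 16. No change is therefore called particular to the fibroblast wells. For Gsn the fibroblast change minus the endothelial one was -0.58 ± 0.58 (SE, adjusted p = 1), for Pi16 -0.07 ± 0.63 (SE, adjusted p = 1), for Postn -1.27 ± 0.79 (SE, adjusted p = 1) and for Ptn -1.30 ± 0.84 (SE, adjusted p = 1). Levels differed between the kinds of well, as a description of wells chosen on markers. Mean unscaled Postn was 1702 CPM in fibroblast and 127 in endothelial-led wells at P4, and 308 and 45.6 at P28. Mean unscaled Pi16 was 28.4 and 9.31 at P4, and 847 and 270.2 at P28. Postn, Pi16, Gsn, Ptn, Mdk, Cthrc1, Sfrp2, Mfap2, Col14a1 and Spon2 were above the endothelial-led wells in 9 of 9 chips, and Acta2 in 7.

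Within the fibroblast wells the genes were read as shares of wells with at least 1 UMI, after thinning each well to 2000 UMIs and leaving out shallower wells (22 and 16 at P4, 21 and 5 at P7, then 2 and 0 at P14 and 107, 83 and 52 at P28). The share with Postn was 72.5 and 72.4% at P4, 71.1 and 66.4% at P7, then 16.3 and 11.6% at P14 and 15.0, 16.7 and 22.4% at P28, and that with Acta2 21.8 and 31.8% at P4, 27.8 and 28.6% at P7, then 2.41 and 4.65% at P14 and 3.58, 3.35 and 6.83% at P28. The Acta2 share in the endothelial-led wells was 15.2 and 20.8% at P4, below that of the fibroblast wells in both chips. It fell as well, with 16.4 to 22.7% at P7, 2.61 to 3.26% at P14 and 1.91 to 2.33% at P28. At P14 its range overlapped that of the fibroblast wells. Pi16 was found in 1.79 and 2.67% at P4, 8.82 and 11.7% at P7, then 18.7 and 25.6% at P14 and 69.4, 37.7 and 47.8% at P28 of the fibroblast wells and in 2.38 and 1.42% at P4, 3.52 and 3.91% at P7, then 6.19 and 1.31% at P14 and 60.2, 18.2 and 26.7% at P28 of the endothelial-led wells. In every P28 chip the fibroblast share was the higher. Lyz2, a macrophage gene, was found in 66.4, 53.7 and 22.4% of the fibroblast wells and 65.0, 51.7 and 29.7% of the endothelial-led wells at P28, so neither kind of well was higher in all 3 chips. At the unthinned depth the median UMIs per well at P28 were 4642.5, 7895 and 4691 in fibroblast and 6028, 7155.5 and 3856.5 in endothelial-led wells.

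**Figure D5:**
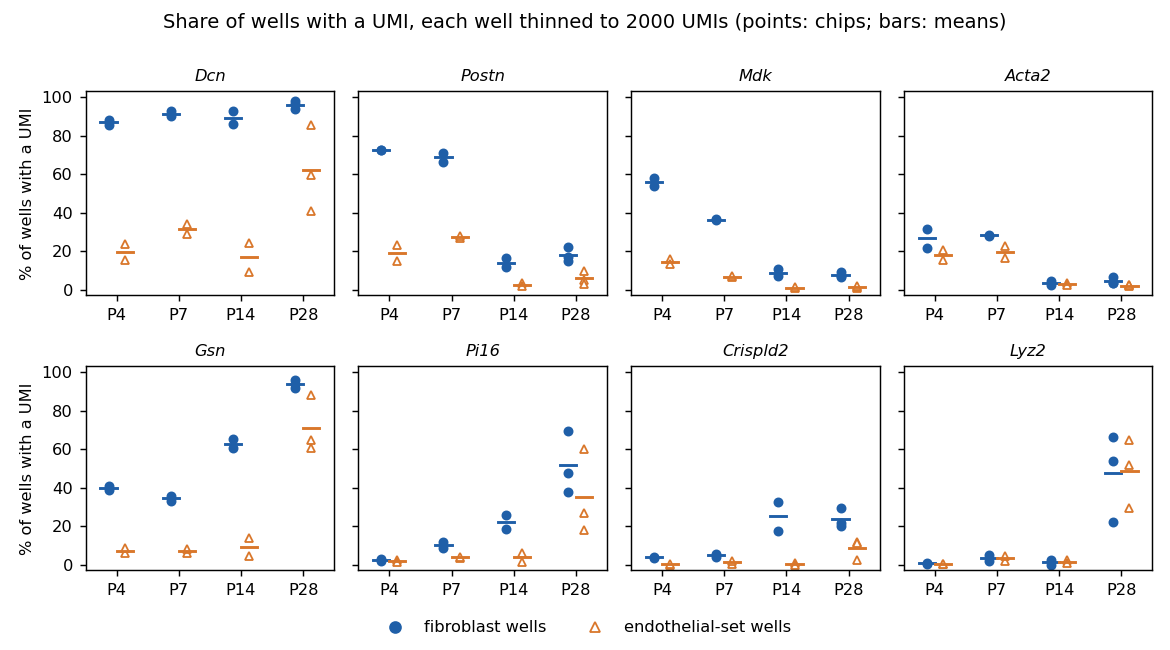
Percent of wells with at least 1 UMI of 8 genes after thinning to 2000 UMIs, by stage, with circles for fibroblast wells, triangles for endothelial-led wells, a point for each chip and bars for means. For Pi16 the fibroblast share runs from 1.79 and 2.67% at P4 to between 37.7 and 69.4% at P28, and the endothelial-led share reaches 18.2 to 60.2%.

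Wells with and without Pi16 were set side by side at P28. Sema3c, a guidance ligand, was found in 18.7, 20.6 and 11.7% of the wells with Pi16 and 5.84, 7.63 and 4.76% of those without. Ly6a was found in 45.8, 36.0 and 28.6% against 29.9, 20.3 and 11.9%, Ackr3 in 31.6, 21.5 and 9.09% against 20.4, 10.7 and 2.38%, and Cd248 in 18.7, 10.7 and 6.49% against 11.7, 2.26 and 3.57%. All 4 genes were more frequent with Pi16 in all 3 chips. Other genes set beside Pi16 differed by amounts that varied between chips, or went the other way. Dpp4 was also more frequent with Pi16 in all 3 chips, at 8.71, 4.67 and 2.60% against 4.38, 3.67 and 1.19%. Postn was found in 17.1, 16.4 and 31.2% against 10.2, 16.9 and 14.3%, and Col1a1 in 61.9, 61.7 and 76.6% against 54.0, 63.0 and 63.1%. Igfbp6 was found in 55.5, 29.9 and 27.3% against 52.6, 27.1 and 23.8%. C3 was less frequent with Pi16 in all 3 chips, at 6.13, 9.81 and 7.79% against 6.57, 14.7 and 13.1%, and Tcf21 in replicates 2 and 6. Gsn was found in 95.5, 95.3 and 98.7% against 96.4, 92.9 and 85.7%. Lyz2, the background gene, was found in 68.7, 53.7 and 22.1% against 61.3, 53.7 and 22.6%. At P4 and P7 Acta2 wells held Tagln in 20.5, 18.7, 14.4 and 12.3%, against 8.40, 5.65, 4.44 and 3.96% of the other wells. The mural marker Rgs5 was also more frequent in Acta2 wells in all 4 chips, with 13.7, 14.0, 23.1 and 21.0% against 7.25, 7.39, 16.3 and 12.9%. These are wells of the same chips and not replicates, and no test was made.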

How the data were processed

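UMI counts were read from the matrix and the well report deposited for each chip. Per the study's methods, the authors dispensed cells on ICELL8 nanowell chips, chose wells with 1 live cell by imaging, demultiplexed the reads by well barcode, aligned them to mm10 with STAR 2.5.2b, assigned them to genes with featureCounts (Subread 1.4.6-p1) and collapsed duplicates by UMI. The deposited values are unnormalized UMI counts for each gene in each well, and the reports give counts of genes and UMIs per well. In all 16114 wells read, the matrix summed to the reported total. No doublet caller was run, and wells with markers of several types were an alternative instead.

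Wells were chosen by the rule given in the report, and the UMIs of the chosen wells were summed per chip, since cells are not replicates. The 9 sums of 4 stages entered 1 fit with edgeR 4.0.16 in R 4.3.3 (TMM scaling, filterByExpr, glmQLFit and glmQLFTest, Benjamini-Hochberg threshold 0.05), with 5 residual degrees of freedom and a common dispersion of 0.417. The 30 genes of the rule were counted in library sizes but not tested, which left 16002 genes. Each SE is the size of the log2 change divided by the square root of F, and CPM of single genes per chip carry TMM scaling, while marker sums, per-animal values and levels set beside endothelial-led wells are unscaled. Differences from the endothelial-led wells were tested with chip as a block. DESeq2 1.42.0 was an alternative. Tests were run on simulated counts first. Genes named were members of 31 lists and, for each comparison between stages, up to 10 called genes a direction, ranked by p, whose chips did not overlap and which no list of another cell type held. The members, lists and tests were chosen with earlier results of these data known. Gene positions come from GENCODE and promoter windows from RefSeq on GRCm38. Where a group had 1 to 3 UMIs of a gene, the ratio is printed with an exact interval for counting error. P28 replicates 1, 3 and 5, loaded as CM chips, were not compared. Of the genes that passed the test, 1 is not reported here.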

Additional observations from a re-analysis of the deposited data

Results flagged for a closer look

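Outside the 9 chips, the wells of P28 replicates 1, 3 and 5, loaded as CM chips, also held wells that met the fibroblast rule. There were 92 of 1100 wells with 500 or more genes in replicate 1, 11 of 711 in replicate 3 and 41 of 703 in replicate 5. They entered no comparison. In these wells the cardiomyocyte markers took a median of 4.41, 8.19 and 7.79% of non-mitochondrial UMIs, against 0.105 to 0.282% in the P28 chips that were compared.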

How the results depend on the processing

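No paired analysis was possible because the labels give the chips no replicate numbers and the numbers used here follow accession order, so stages could not be paired. Fibroblast and endothelial-led wells were compared within chips, with chip as a block. For P7 against P4 (2 genes), DESeq2 called 74, RLE scaling 4, no filter on low counts 65, a minimum of 10 CPM 1, a fit of only the 2 stages 65, wells of 1000 or more genes 4, a threshold of 1% 6, no mixed wells 4, thinning to 2000 UMIs 13, and leaving out wells with over 1% or over 5% cardiomyocyte markers 4 and 4. For P14 against P7 (145), DESeq2 called 1004, no filter 461, the 2 stages alone 7, sums per named animal 61, wells of 1000 or more genes 88, a threshold of 1% 82, wells under 1% cardiomyocyte markers 37 and P14 wells named NCM 59. For P28 against P14 (50), the counts were 631 with DESeq2, 347 without a filter, 23 with the 2 stages alone, 24 with 1000 or more genes, 7 under 1% cardiomyocyte markers, 79 after thinning and 0 with P14 wells named NCM. In that last setting the change of Tpm1 turned to 0.38. For P28 against P4 (213), they were 778 with DESeq2, 501 without a filter, 320 with the 2 stages alone, 81 under 1% cardiomyocyte markers and 438 after thinning. For the difference from endothelial-led wells (0), DESeq2 called 16 and no filter 8. Leaving out 1 chip at a time gave 0 to 8, 19 to 1038, 30 to 878 and 66 to 445 genes for the comparisons between stages in this order, and 0 for the difference. The extremes came without P4 replicate 2 and P28 replicate 2, without P7 replicate 1 and P14 replicate 1, without P28 replicate 4 and P14 replicate 1, and without P4 replicate 2 and P14 replicate 2. The mean share of fibroblast wells at P28, 33.9%, was 20.5% at a threshold of 1% and 19.4% without mixed wells. Alternatives on wells over 5% cardiomyocyte markers and on P14 wells named NCM were chosen after seeing the data. Of 2262 values of single genes under an alternative, 1807 stayed on their side of the threshold, 451 fell short of it, 3 newly passed and 1 changed sign. For P28 against P4, Pi16, Gsn, H2-K1, B2m, Ptn, Mdk, H19, Acta2 and Myl9 passed under all 22 alternatives. So did the muscle genes Ankrd1, Sln, Tnni1 and Myh6, so passing them all does not tell fibroblast RNA from that of other cells. The cause of the differences between settings was not tested. In simulated counts of these depths, with the same spread for every gene, 4% of genes changed 4-fold were recovered.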

Other observations

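P28 replicate 6 stood apart in activation genes, which were chosen after their values were seen. Timp1, an inhibitor of matrix proteases, was at 15.7, 99.2 and 1086 CPM in the P28 chips, and Ccn2, a matricellular growth factor modulator, at 58.8, 113 and 909. Tagln, a smooth muscle protein, was at 3.51, 25.1 and 410.2, and Tnc, tenascin C, at 1.98, 4.23 and 132. Col8a1, which passed the test for P28 against P4 and not without this chip, was at 106, 140.4 and 838. Within replicate 6 the well reports name animals M1 and M2. Timp1 was at 1810 unscaled CPM in M1 and 253 in M2, Ccn2 at 1371 and 393, and Tagln at 589 and 215. At 2000 UMIs, Ccn2 was found in 8.7, 12.1 and 41.0% of the fibroblast wells. No test was made, since these genes were picked for this chip.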
